A study of Mus musculus with 3 samples.

Results

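The mitochondrially encoded complex I genes are mt-Nd1, mt-Nd2, mt-Nd3, mt-Nd4l, mt-Nd4, mt-Nd5 and mt-Nd6. They were taken by symbol, and all 7 were found among the 30415 gene symbols measured. Values are UMIs (unique molecular identifiers, a tag that marks each captured RNA molecule) in droplet single-cell libraries of mouse heart made with a kit that reads the 3′ ends of polyadenylated RNA. The mice were NOD/SCID, a strain without functional T and B lymphocytes, and were injected on day 0 and day 7 with pembrolizumab (anti-PD-1), atezolizumab (anti-PD-L1) or an isotype control antibody. Hearts were taken on day 14 and 3 were pooled per group, so each group is 1 library with no replicate, and the sources used here give neither age nor sex of the mice.

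The libraries are called isotype, PD1/PEM and PDL1/ATZ after their titles, because the treatment tags give atezolizumab for PD1/PEM and pembrolizumab for PDL1/ATZ. No difference can therefore be assigned to an antibody by name. The isotype library held 9510 cells and 16677883 UMIs, PD1/PEM 6388 cells and 14766346 UMIs, and PDL1/ATZ 11599 cells and 15144668 UMIs. The PDL1/ATZ library stood apart. Genes of the mitochondrial genome made up 26.0% of UMIs in isotype and 25.9% in PD1/PEM but 7.74% in PDL1/ATZ. Its median cell was also the shallowest, with 1010 UMIs against 1532.5 in isotype and 2013.5 in PD1/PEM. Its gene symbols differed as well: 161 symbols had at least 500 UMIs in PDL1/ATZ or isotype with 0 in the library compared, and 0 symbols did so for PD1/PEM and isotype. A set of 23 cell barcodes occurred in both isotype and PD1/PEM, and no PDL1/ATZ barcode occurred elsewhere. With 1 library per group, treatment, library and the authors' processing of each library cannot be told apart, and no test between groups was possible.

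Complex I (NADH:ubiquinone oxidoreductase) takes electrons from NADH at the start of the respiratory chain and pumps protons across the inner mitochondrial membrane. The 7 genes encode core subunits of its membrane arm, while the other subunits come from nuclear genes, and heart muscle is rich in mitochondria. The mitochondrial genome is transcribed from both strands as long precursors, which are cut mainly at the tRNAs that lie between the coding genes. mt-Nd6 is the only protein-coding gene whose RNA comes from the light-strand promoter. In human cells its mRNA is described as lacking the poly(A) tail that the other mitochondrial mRNAs carry, most other light-strand RNA is degraded by PNPT1 and SUPV3L1, and GRSF1 is known to bind ND6 RNA.

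The sequences below are from the reference genome (GENCODE M21, GRCm38, the same build as mm10), which is of another mouse strain. All 7 genes are single-exon genes on chromosome M. On the plus strand of the reference lie mt-Nd1 (chrM:2751-3707), mt-Nd2 (chrM:3914-4951), mt-Nd3 (chrM:9459-9806), mt-Nd4l (chrM:9877-10173), mt-Nd4 (chrM:10167-11544) and mt-Nd5 (chrM:11742-13565). On the minus strand lies mt-Nd6 (chrM:13552-14070), 74 bases from mt-Cytb. The first 90 bases of the coding strands of mt-Nd6 and mt-Nd5 are shown to let the base composition of the strands be compared, with every G in capitals (17 in mt-Nd6 and 0 in mt-Nd5).
mt-Nd6: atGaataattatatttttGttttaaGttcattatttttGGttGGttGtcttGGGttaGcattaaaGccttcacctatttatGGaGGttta
mt-Nd5: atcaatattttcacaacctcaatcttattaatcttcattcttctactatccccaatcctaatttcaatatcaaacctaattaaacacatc

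Over its whole length the mt-Nd6 RNA strand was 28.1% G, 43.7% T, 22.2% A and 5.97% C. Across the 12 heavy-strand protein-coding genes, G ran from 5.88% to 16.1% and A from 29.5% to 40.7%. The longest run of A in mt-Nd6 was 3 bases, while 10 of the 12 other genes held a run of at least 5 and mt-Nd2 held a run of 8. These runs are a description of the reference letters only.

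Overlaps between the genes bear on how reads can be assigned. mt-Nd5 and mt-Nd6 meet tail to tail and share 14 bases on opposite strands. Their last 45 bases are shown 5′ to 3′, each on its own strand, with the shared bases in capitals.
mt-Nd5: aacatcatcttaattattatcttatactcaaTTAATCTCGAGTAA
mt-Nd6: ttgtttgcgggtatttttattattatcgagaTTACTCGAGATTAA

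mt-Nd4l and mt-Nd4 are known to be carried on 1 bicistronic mRNA, and their reading frames share 7 bases. The last 45 bases of mt-Nd4l and the first 45 of mt-Nd4 are shown with these bases in capitals, since a 3′ read from this mRNA falls mostly in mt-Nd4.
mt-Nd4l: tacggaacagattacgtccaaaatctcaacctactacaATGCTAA
mt-Nd4: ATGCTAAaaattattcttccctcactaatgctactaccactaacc

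The sources used here do not say whether the authors' counting used the strand of the reads, nor whether PDL1/ATZ, with its other symbols, was counted with the same annotation and settings. A difference in counting and a difference in RNA cannot be told apart in any comparison of mt-Nd6 with PDL1/ATZ. Without strand, light-strand and heavy-strand RNA across mt-Nd6 cannot be told apart. Reads from nuclear copies of mitochondrial DNA were not analysed here.

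The complex I genes together took 7.38% of all UMIs in isotype (95% counting interval 7.37 to 7.39). They took 6.87% in PD1/PEM (6.86 to 6.89) and 1.91% in PDL1/ATZ (1.90 to 1.92). Most of that gap followed the whole mitochondrial genome: within mitochondrial UMIs the share was 28.4% in isotype (28.3 to 28.4), 26.5% in PD1/PEM (26.5 to 26.5) and 24.7% in PDL1/ATZ (24.6 to 24.7). These intervals and all others below are exact at 95% and cover counting error only. They are too narrow as a measure of the difference between hearts, which pooled libraries cannot give.

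The members fell into an abundant and a scarce set. mt-Nd1, which lies at the join of the membrane and peripheral arms, took 6.96% of mitochondrial UMIs in isotype, 6.45% in PD1/PEM and 7.11% in PDL1/ATZ. mt-Nd2, an antiporter-like subunit, took 7.07%, 6.29% and 5.87% in the same order. mt-Nd4, another antiporter-like subunit, took 7.28%, 7.45% and 7.43%. For mt-Nd1 and mt-Nd4 the share of mitochondrial UMIs was thus no lower in PDL1/ATZ than in isotype, whereas mt-Nd2 was lowest in PDL1/ATZ. mt-Nd3, a small subunit that contributes to the loop switching between active and deactive complex I, took 4.72% in isotype, 4.11% in PD1/PEM and 2.78% in PDL1/ATZ. mt-Nd4l, a small membrane subunit, took 0.806%, 0.698% and 0.382%. Both small subunits were highest in isotype and lowest in PDL1/ATZ, as were mt-Nd2 and mt-Nd5. mt-Nd5, the antiporter-like subunit at the far end of the membrane arm, took 1.13%, 1.10% and 0.952%. mt-Nd6, which sits beside mt-Nd4l in the membrane arm, took 0.411% in isotype, 0.418% in PD1/PEM and 0.148% in PDL1/ATZ. It was the scarcest of the 7 in each library.

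Per length the order changed. In isotype, the share of mitochondrial UMIs per kilobase of gene was 13.6% for mt-Nd3, 7.27% for mt-Nd1, 6.81% for mt-Nd2 and 5.28% for mt-Nd4. It was 2.72% for mt-Nd4l, 0.792% for mt-Nd6 and 0.618% for mt-Nd5. On this scale mt-Nd6 stood above mt-Nd5 in isotype and in PD1/PEM, where the values were 0.806% and 0.602%. In PDL1/ATZ it stood below, at 0.285% against 0.522%. A 3′ kit counts a molecule once whatever its length, so the share per kilobase lowers long genes such as mt-Nd5.

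**Figure D1:**
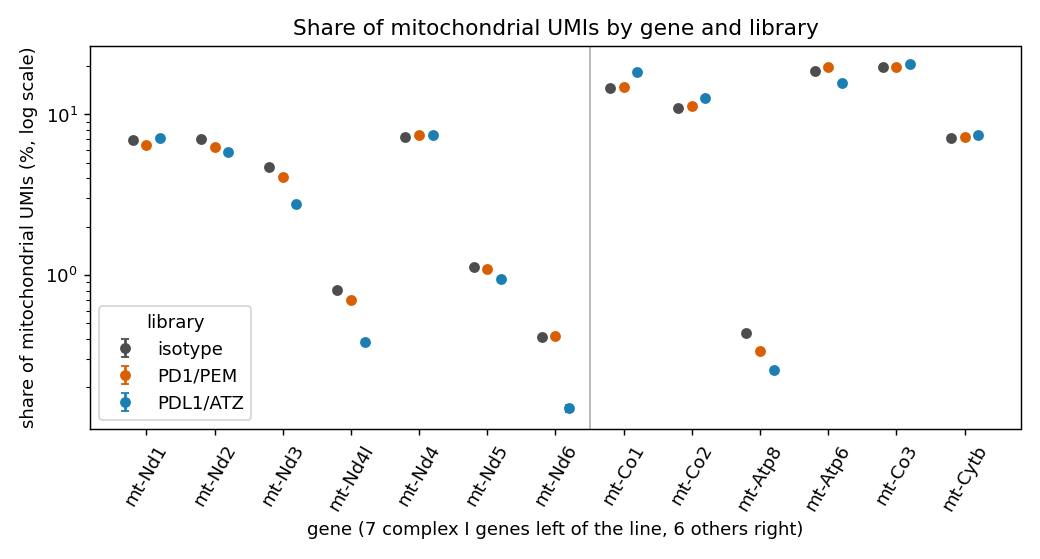
Share of mitochondrial UMIs (percent, log scale) taken by each protein-coding gene of the mitochondrial genome in the 3 libraries; points are library totals and bars 95% counting intervals, mostly smaller than the points. mt-Nd6 is the lowest complex I gene in each library and lies at 0.411%, 0.418% and 0.148%.

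Between PD1/PEM and isotype, the ratio of CPM (UMIs per 1000000 UMIs of the library) stayed within 1.5-fold for all 7 genes. In this comparison 10.1% of 14748 genes were at least 1.5-fold apart in either direction. The ratio ran from 0.863 for mt-Nd4l (0.850 to 0.877) to 1.02 for mt-Nd4 (1.02 to 1.03), and mt-Nd6 was at 1.02 (0.994 to 1.04). The mt-Nd6 interval includes no difference, while mt-Nd2, mt-Nd3 and mt-Nd4l were 1.13-fold, 1.15-fold and 1.16-fold lower in PD1/PEM.

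Between PDL1/ATZ and isotype, all 7 genes were lower by at least 1.5-fold, where 55.0% of 15496 genes were past this limit and 5.32% were lower. mt-Nd6 was at 1069 CPM in isotype, 1085 in PD1/PEM and 115 in PDL1/ATZ, and was 9.32-fold lower in PDL1/ATZ than in isotype (8.87 to 9.80). mt-Nd4l was 7.09-fold lower (6.88 to 7.32) and mt-Nd3 5.71-fold lower (5.65 to 5.78). mt-Nd2 was 4.05-fold, mt-Nd5 3.97-fold, and mt-Nd1 and mt-Nd4 each 3.29-fold lower. These folds depend on the scale: with median-of-ratios size factors mt-Nd6 was 14.4-fold lower, mt-Nd4l 10.9-fold and mt-Nd1 5.07-fold, and with UMIs outside the mitochondrial genome mt-Nd6 was 11.6-fold lower. The 6 other mitochondrial protein-coding genes were also all lower, by 2.66-fold for mt-Co1 to 5.73-fold for mt-Atp8, while the median log2 ratio of all genes was 0.58 on the CPM scale and 0.26 when scaled by UMIs outside the mitochondrial genome. Set against mitochondrial UMIs in place of all UMIs, mt-Nd6 was 2.78-fold lower in PDL1/ATZ than in isotype (2.64 to 2.92), mt-Nd4l 2.11-fold and mt-Nd3 1.70-fold. On that scale mt-Nd1 and mt-Nd4 were no longer lower, each at a ratio of 1.02. Against PD1/PEM, all 7 were also lower in PDL1/ATZ by at least 1.5-fold, from 3.04-fold for mt-Nd1 to 9.46-fold for mt-Nd6. In that comparison 52.3% of 15346 genes were past 1.5-fold, 47.8% higher and 4.52% lower.

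The ratio of mt-Nd6 to the 6 heavy-strand complex I genes needs no library total. The isotype library held 17827 mt-Nd6 and 1212648 heavy-strand complex I UMIs, or 1.47 per 100 (1.45 to 1.49). PD1/PEM held 16027 and 999120, or 1.60 per 100 (1.58 to 1.63). PDL1/ATZ held 1737 and 287471, or 0.604 per 100 (0.576 to 0.633). The ratio in PDL1/ATZ was 2.43-fold lower than in isotype (2.32 to 2.56) and 2.65-fold lower than in PD1/PEM (2.53 to 2.79). Between PD1/PEM and isotype it was 1.09-fold higher in PD1/PEM (1.07 to 1.11). The median over cells was 0.870 per 100 in isotype, 0.943 in PD1/PEM and 0 in PDL1/ATZ, lower than the summed ratio in each library. The PDL1/ATZ library also had less cardiomyocyte and more endothelial RNA. The 8 cardiomyocyte markers summed to 31577 CPM in isotype, 23163 in PD1/PEM and 11991 in PDL1/ATZ, and the 9 endothelial markers to 3051, 3925 and 6654, with no marker of either list at 0. Their part in the ratio was not tested over the libraries, and fewer cells of a type and less RNA per cell cannot be told apart in these sums.

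Cells of like mitochondrial share were then set side by side. In cells with 20 to 25% mitochondrial UMIs, mt-Nd6 was at 1.97 per 100 heavy-strand UMIs in isotype (2100 cells), 2.19 in PD1/PEM (1596 cells) and 0.305 in PDL1/ATZ (44 cells). This is 6.44-fold lower in PDL1/ATZ than in isotype (3.68 to 12.5). In cells with 10 to 15%, the values were 4.70 (53 cells), 6.94 (33 cells) and 0.475 (2195 cells), so PDL1/ATZ was 9.89-fold below isotype (8.33 to 11.7). These bins hold few cells of at least 1 of the libraries, and only 12 mt-Nd6 UMIs for PDL1/ATZ at 20 to 25%. The bins are set by mitochondrial UMIs, which include the denominator of the ratio.

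Within each library the ratio was lower in cells with more mitochondrial RNA. In isotype it went from 4.70 in the 10 to 15% cells over 2.61 and 1.97 to 1.24 in the 25 to 30% cells, a 3.79-fold range. In PD1/PEM it went from 6.94 over 3.73 and 2.19 to 1.26, a 5.51-fold range. In PDL1/ATZ it went from 0.692 in cells under 5% to 0.305 in the 20 to 25% cells, a 2.26-fold range. The share of the 7 genes in mitochondrial UMIs moved by at most 1.07-fold over the same bins. Counted per 1000000 UMIs from outside the mitochondrial genome, mt-Nd6 in isotype was at 2029, 1627, 1646 and 1341 from the lowest to the highest bin. In PD1/PEM it was at 2843, 2212, 1724 and 1264. In PDL1/ATZ it went up from 68.2 to 205, and the last value rests on 12 mt-Nd6 UMIs in 44 cells. Malat1, a nuclear long noncoding RNA, moved with these bins in isotype, from 3.63% to 2.44% of non-mitochondrial UMIs, and in PD1/PEM from 4.51% to 2.33%. In PDL1/ATZ it lay between 3.03% and 3.68% with no steady order. The part of nuclear RNA in the ratio was not tested. In cells with at most 25% mitochondrial UMIs, which are the minority of the isotype and PD1/PEM libraries, the ratio was 2.13 in isotype and 2.53 in PD1/PEM.

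**Figure D2:**
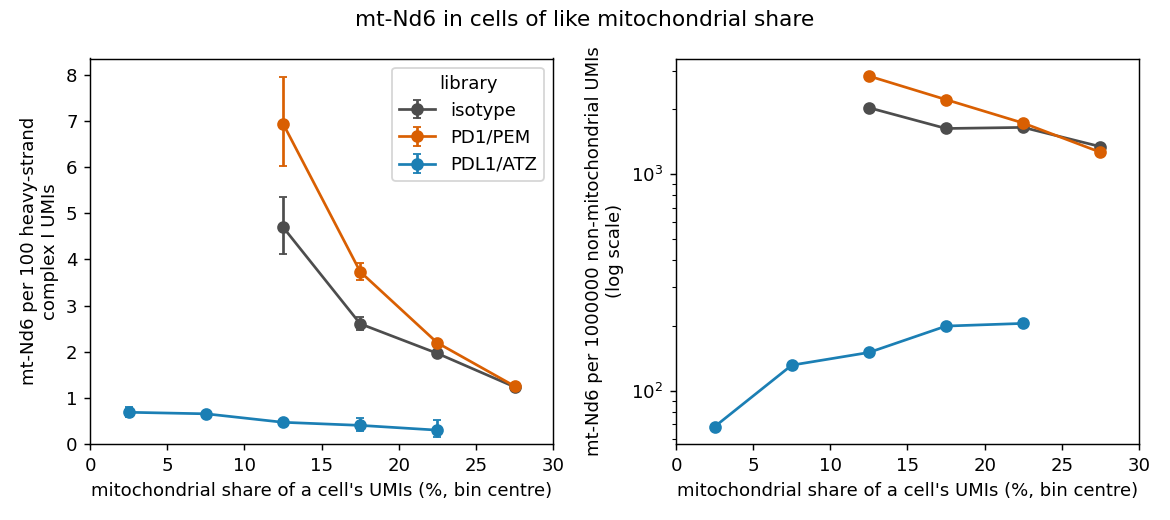
mt-Nd6 UMIs per 100 heavy-strand complex I UMIs with 95% counting intervals (left) and mt-Nd6 UMIs per 1000000 non-mitochondrial UMIs on a log scale (right), against the mitochondrial share of a cell's UMIs in bins 5 points wide with at least 20 cells. On the left all libraries slope down, from 4.70 to 1.24 in isotype, 6.94 to 1.26 in PD1/PEM and 0.692 to 0.305 in PDL1/ATZ.

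Sequencing depth of a cell also moved with the ratio. Cells of each library were split into 4 groups of about equal size by their UMIs. In isotype the groups from shallowest to deepest had 1.66, 1.94, 1.74 and 1.01 mt-Nd6 UMIs per 100 heavy-strand complex I UMIs. In PD1/PEM they had 1.82, 2.46, 1.76 and 1.06, and in PDL1/ATZ 0.575, 0.620, 0.689 and 0.557. The deepest group was the lowest in each library, and PDL1/ATZ lay below both other libraries in all 4. In PDL1/ATZ the interval of the deepest group (0.515 to 0.602) overlapped that of the shallowest (0.508 to 0.647). Groups were cut within each library, and the deepest began at 2191, 3077 and 1510 UMIs in the same order. Cells of the same group are therefore not of like depth between libraries.

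mt-Nd6 was unevenly spread over cells in isotype and PD1/PEM. A UMI of mt-Nd6 was seen in 63.7% of isotype cells (62.7 to 64.6), 70.4% of PD1/PEM cells (69.3 to 71.6) and 13.2% of PDL1/ATZ cells (12.6 to 13.8). If every cell of a library had the same mt-Nd6 share of its mitochondrial UMIs, 78.9%, 85.4% and 13.6% of cells would have held one. Fewer cells than that held the gene in isotype and PD1/PEM, and about as many in PDL1/ATZ. Every cell type of the heart has mitochondria, so no cell type could serve as a level for free RNA, and these shares include whatever free RNA the droplets held. After thinning each cell to 700 UMIs the shares were 43.0%, 44.4% and 7.91%, leaving out 483, 133 and 413 shallower cells.

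The variance over cells, given each cell's mitochondrial UMIs and divided by the variance of binomial sampling, was 4.48 for mt-Nd6 in isotype and 5.56 in PD1/PEM. In PDL1/ATZ it was 1.13. mt-Nd4l came next, at 1.47, 1.67 and 1.08, and mt-Nd5 followed at 1.22, 1.26 and 1.08. The other 4 members lay between 0.999 and 1.15, close to binomial sampling. mt-Nd4l had more UMIs per cell than mt-Nd6 in isotype, 3.68 against 1.87, and the lower value. The part of the level in the difference between these genes was not tested. Thinning lowers this value whatever the cause of the spread, so the next values only set the libraries at a like mt-Nd6 level. The cause of the gap between libraries was not tested. When mitochondrial UMIs of isotype and PD1/PEM cells were thinned until mt-Nd6 was as scarce as in PDL1/ATZ (0.150 UMIs per cell), a check added after the data were seen, the value for mt-Nd6 was 1.30 in isotype and 1.25 in PD1/PEM. At this level 2 cells in each library still reached 5 mt-Nd6 UMIs. Because mt-Nd6 UMIs cluster in cells, counting intervals for mt-Nd6 in isotype and PD1/PEM are narrower than its spread over cells would give.

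Cells with at least 5 mt-Nd6 UMIs were 11.2% of isotype cells (1068) and 17.3% of PD1/PEM cells (1104). They held 47.9% and 58.2% of all mt-Nd6 UMIs of their libraries. No PDL1/ATZ cell reached 5, and its highest cell held 4, against 51 in isotype and 47 in PD1/PEM. In 4 isotype and 4 PD1/PEM cells mt-Nd6 outnumbered the 6 heavy-strand complex I genes together. These cells held 5 to 12 and 10 to 13 mt-Nd6 UMIs among only 6 to 13 and 14 to 17 mitochondrial UMIs.

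**Figure D3:**
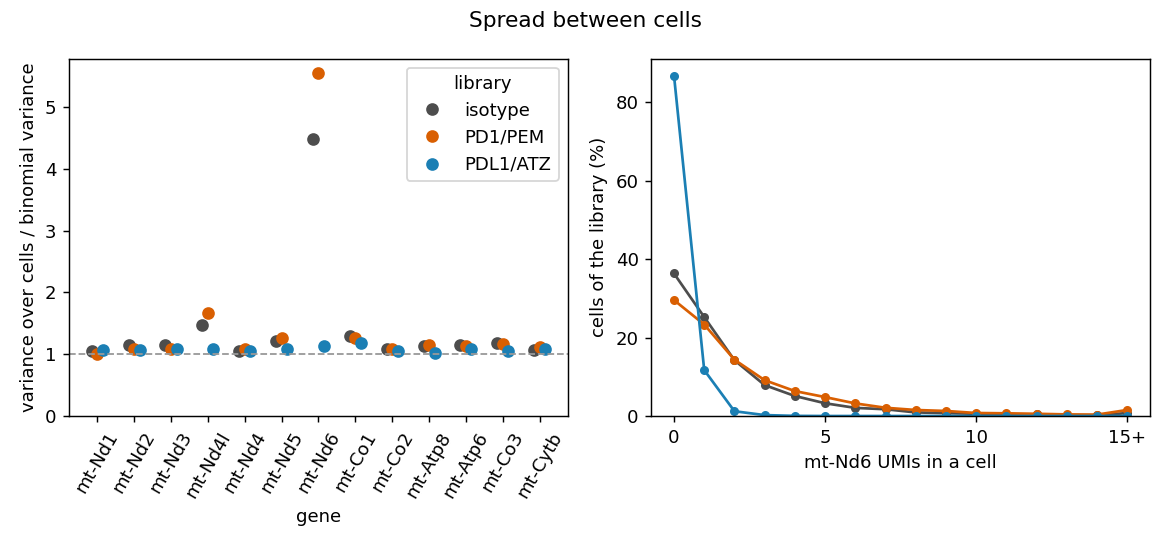
Left, variance over cells divided by the binomial variance given each cell's mitochondrial UMIs, for the 13 genes in 3 libraries, with the dashed line at the value of binomial sampling; right, percent of cells of each library by their number of mt-Nd6 UMIs. mt-Nd6 stands at 4.48 in isotype and 5.56 in PD1/PEM and at 1.13 in PDL1/ATZ.

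Cells were clustered jointly without any mitochondrial gene, so the complex I genes themselves did not shape the 11 clusters, although nuclear genes and depth that move with them could. Most clusters were dominated by isotype and PD1/PEM cells (1 to 4) or by PDL1/ATZ cells (5, 9 and 10), and these stayed unnamed by their markers. The clustering also set isotype and PD1/PEM apart. Cluster 2 was the main cluster of the isotype library, at 54.5%, but a smaller one in PD1/PEM, at 17.9%. Cluster 3 was the main one in PD1/PEM, at 55.7%, and took in only 10.6% of the isotype library. Cluster 1 was led among others by Adra1a and Myh7b, and cluster 4 by Fgf12, Ryr3 and other genes. Cluster 6 was fibroblast-like with tendon and cartilage matrix genes (Chad, Comp, Fmod) in front. Cluster 7 was macrophage-like, cluster 8 smooth muscle-like and cluster 11 mesothelial-like. Levels were read where a library had at least 20 cells in a cluster.

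The share of the 7 genes in mitochondrial UMIs hardly differed between clusters. It ran from 26.8% to 28.9% in isotype, from 25.5% to 27.3% in PD1/PEM and from 23.5% to 26.6% in PDL1/ATZ. The ratio of mt-Nd6 to heavy-strand complex I UMIs differed more. In isotype it ran 4.83-fold, from 0.357 per 100 in the smooth muscle-like cluster (27 cells, 18 mt-Nd6 UMIs) to 1.72 in cluster 2 (5183 cells). In PD1/PEM it ran 2.50-fold, from 0.786 in cluster 4 to 1.97 in cluster 3. In PDL1/ATZ it ran 4.47-fold, from 0.242 in the macrophage-like cluster (16 mt-Nd6 UMIs) to 1.08 in cluster 3, which rests on 30 cells and 11 mt-Nd6 UMIs. With coarser clusters these ranges were 2.56-fold, 2.60-fold and 1.81-fold, and with each library clustered alone 2.61-fold, 4.16-fold and 2.42-fold, so the order of the libraries by range is not fixed. As a share of mitochondrial UMIs, mt-Nd4l and mt-Nd5 ranged 1.37-fold to 1.62-fold over clusters in the 3 libraries and mt-Nd1, mt-Nd2, mt-Nd3 and mt-Nd4 at most 1.25-fold.

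The small excess of PD1/PEM over isotype in the library ratio of mt-Nd6 to heavy-strand complex I UMIs was not shared by all clusters. In cluster 1 the ratio was 1.54 in isotype and 0.938 in PD1/PEM, 1.64-fold lower in PD1/PEM (1.55 to 1.74). In cluster 3 it was 1.13 in isotype and 1.97 in PD1/PEM, 1.74-fold higher in PD1/PEM (1.66 to 1.83). Both contrasts set unequal parts of the libraries side by side. Cluster 3 was the main cluster of PD1/PEM and a minor one of isotype, while cluster 1 made up 26.0% of the isotype library and 12.4% of PD1/PEM. Whether cells of 1 cluster were alike between libraries was not tested. Of 8 clusters read in both libraries, PD1/PEM was higher in 7, with an interval clear of no difference in 5, and lower in cluster 1 alone. These counting intervals are narrower than the spread of mt-Nd6 over cells would give, so fewer than 5 might stay clear with it. Cluster 1 cells were also deeper in PD1/PEM, with a median of 3235 UMIs against 2194 in isotype, and the part of depth was not tested. In the macrophage-like cluster the ratio was 0.503 in isotype, 0.924 in PD1/PEM and 0.242 in PDL1/ATZ.

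Within clusters the ratio was mostly lower in PDL1/ATZ, but the gap to isotype was smaller than over whole libraries in 7 of 8 clusters. It was lower than in isotype in 7 of 8, with an interval clear of no difference in 4, and lower than in PD1/PEM in 8 of 8, all with such intervals. These intervals, too, leave out the spread of mt-Nd6 over cells. In cluster 5, which holds most of the PDL1/ATZ library, the ratio was 0.575 in PDL1/ATZ (6323 cells), 1.07 in isotype (109 cells) and 1.29 in PD1/PEM (155 cells). In cluster 9, with 33.8% of PDL1/ATZ cells, it was 0.691 in PDL1/ATZ and 0.854 in isotype (21 cells), and their ratio of 0.809 had an interval from 0.535 to 1.28. In the smooth muscle-like cluster it was 0.365 in PDL1/ATZ and 0.357 in isotype, and their ratio of 1.02 had an interval from 0.501 to 2.08.

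**Figure D4:**
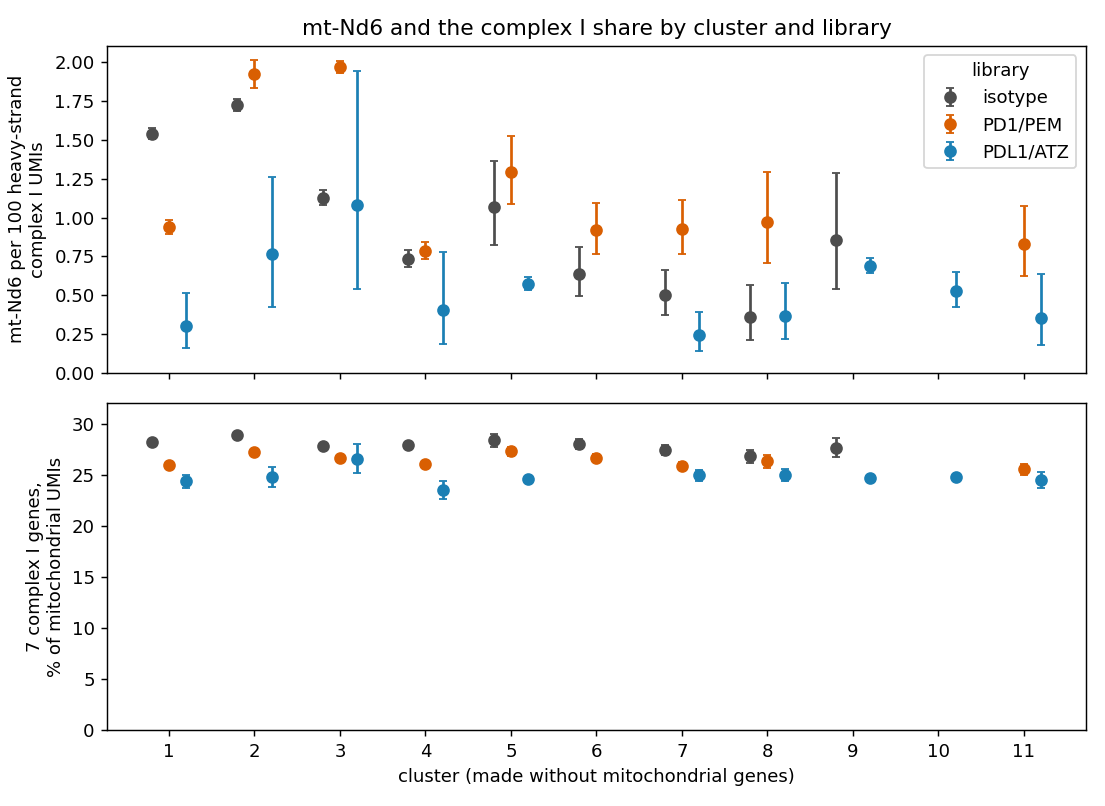
mt-Nd6 UMIs per 100 heavy-strand complex I UMIs (top) and the share of the 7 complex I genes in mitochondrial UMIs in percent (bottom), by cluster and library, for clusters with at least 20 cells of the library; bars are 95% counting intervals. The share stays between 23.5% and 28.9% while the ratio runs from 0.242 to 1.97.

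The genes most like mt-Nd6 were sought over 26 library-by-cluster sums, by Pearson's correlation of log2(CPM + 1) among 4051 genes. The 5 nearest outside the mitochondrial genome were Gm42418 (0.94), Hba-a2 (0.91), Hspa1b (0.90), Hsp90ab1 (0.90) and Gm26917 (0.90). Gm42418 and Gm26917 are gene models known to collect reads of nuclear ribosomal RNA, Hba-a2 encodes an alpha globin, and Hspa1b and Hsp90ab1 encode heat shock chaperones. The sums share 3 libraries, and the step between PDL1/ATZ and the others enters each of these values. Within a library, over 8 or 9 clusters, Gm42418 was at 0.72 in isotype, 0.89 in PD1/PEM and 0.78 in PDL1/ATZ, while Hspa1b was at -0.04, 0.28 and 0.78. Gm26917 was at 0.51, 0.017 and 0.67 and Hba-a2 at 0.25, 0.69 and 0.12. Among the complex I genes mt-Nd4l was nearest within isotype and PD1/PEM, at 0.89 and 0.82.

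Other genes were also compared between cells rich in mt-Nd6 and cells without it. This contrast was chosen after the data were seen and has no test. In cluster 2 of isotype, 484 cells with at least 5 mt-Nd6 UMIs were set against 1976 cells with 0, and the 10 highest and 5 lowest of 798 genes by fold were named. Genes picked from the ends of a ranking lie away from 1 in these cells by that choice. Ncl (nucleolin, a nucleolar protein) was 2.05-fold higher in the mt-Nd6-rich cells (1.78 to 2.37), with 312 UMIs in these cells and 501 in the cells with 0. The cardiac myosin heavy chains Myh7 and Myh6 were 1.68-fold and 1.47-fold higher, and Gm26917 was 1.59-fold higher. Dsp (desmoplakin), Cdk8 (a Mediator kinase), Gm31251, Eif3a (translation initiation), Lars2 (mitochondrial leucyl-tRNA synthetase) and Myo18b (a sarcomeric myosin) were 1.37-fold to 1.54-fold higher. Among the 5 lowest were Rps26 and Rpl34 (ribosomal proteins), Ndufv3 (an accessory complex I subunit) and Ckm (muscle creatine kinase), at ratios of 0.618 to 0.666.

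The same genes were then read in cluster 3 of PD1/PEM, whose cells had no part in choosing them. In 833 mt-Nd6-rich cells against 854 cells with 0, all 10 of the first set had ratios over 1, with intervals above 1 for 9. Ncl was at 1.79 (1.59 to 2.03), Myh7 at 1.78 (1.59 to 1.998) and Myh6 at 1.59 (1.55 to 1.64), while Gm31251 was at 1.03. The 5 lowest were all under 1, with intervals below 1 for 3, and Rps26 was at 0.895 (0.771 to 1.04). In cluster 3 of isotype all 10 were over 1 with intervals above 1, and all 5 under 1 with an interval below 1 for 1 of them. In cluster 2 of PD1/PEM, 9 of the 10 were over 1, with such intervals for 5, and 2 of the 5 were under 1, with such an interval for 1. Ckm was there at 1.43 (1.04 to 1.96), opposite to cluster 2 of isotype, and Ndufv3 at 1.41 (0.867 to 2.22). No share over all 798 genes is given for these cells, so the counts over and under 1 have no background to be read against. The mt-Nd6-rich cells were deeper, with medians of 1379 against 1102.5 UMIs in isotype and 2219 against 1782 in PD1/PEM. In cells of 1000 to 2000 UMIs, Ncl was at 1.999 and 1.83 and Myh6 at 1.41 and 1.48 in the same clusters. Heavy-strand complex I genes took 28.2% against 28.4% of mitochondrial UMIs in isotype and 26.2% against 26.2% in PD1/PEM. The mt-Nd6-rich cells had a lower median mitochondrial share, 26.0% against 28.0% in isotype and 25.4% against 27.7% in PD1/PEM. Ratios of mt-Nd1, mt-Nd2, mt-Nd3, mt-Nd4 and mt-Nd5 were 0.893 to 0.935 in isotype and 0.873 to 0.920 in PD1/PEM. For mt-Nd4l they were 1.06 and 0.989. These genes were also read in cells of 1000 to 2000 UMIs. There mt-Nd1, mt-Nd2, mt-Nd3, mt-Nd4 and mt-Nd5 were at 0.894 to 0.943 in isotype and 0.816 to 0.862 in PD1/PEM. The part of mitochondrial share was not tested. Malat1 was higher in the mt-Nd6-rich cells, at 2.83% against 2.21% of non-mitochondrial UMIs in isotype and 2.72% against 2.05% in PD1/PEM, and its part was not tested.

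The nuclear genes around complex I gave a different picture from the 7 mitochondrial ones. Between PD1/PEM and isotype, where 4.57% of genes were lower by at least 1.5-fold, 1 of 7 nuclear core subunits and 4 of 29 accessory subunits were lower and 0 higher. The lists had median log2 ratios of -0.49 and -0.41, against 0.01 over all genes, and all 7 core and all 29 accessory genes had ratios under 1. The cardiomyocyte markers moved with them, at 31577 CPM in isotype and 23163 in PD1/PEM, while the endothelial list went from 3051 to 3925 and the erythroid list from 3952 to 7177, with no marker at 0. Their part in the lower nuclear genes was not tested. Ndufs1, an iron-sulfur subunit of the electron input module, was at 147 CPM in isotype and 93.0 in PD1/PEM, 1.58-fold lower. Of 17 assembly factors 1 was lower, Ecsit at 28.9 and 18.8 CPM. Of 14 measured genes for transcription and replication of mitochondrial DNA none was past 1.5-fold, with a median of -0.26 and 11 of 14 ratios under 1. The mitochondrial DNA polymerase subunits Polg2 and Polg were at 33.9 and 33.0 CPM in isotype and at 47.7 and 27.8 in PD1/PEM, and Tfb2m, a transcription factor, at 19.7 and 15.6. Of 18 for mitochondrial RNA processing and decay 1 was lower, Tbrg4 at 24.6 and 15.98 CPM.

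Between PDL1/ATZ and isotype, the medians were -0.17 for the nuclear core subunits and 0.08 for the accessory subunits, against 0.58 over all genes, with 1 of 7 lower in the first list and 1 of 29 higher in the second (Ndufb4). In this comparison 49.6% of genes were higher (7691) and 5.32% lower (825), while scaling by median-of-ratios size factors gave 2445 higher and 3056 lower. A change of scale moves every log2 ratio by the same amount, so it leaves the order of these medians as it is but not their sign. The mitochondrial genes thus stood further down, with a median of -1.69 for the 6 outside complex I. Of 18 measured genes for mitochondrial RNA processing and decay, 2 were higher and 2 lower. They are named after their values were seen. Angel2 was at 24.8 CPM in isotype and 59.5 in PDL1/ATZ, and Pnpt1 (a mitochondrial exoribonuclease) at 9.53 and 22.7. Grsf1 (a mitochondrial RNA-binding protein) was at 32.5 and 20.6 CPM, and Tbrg4 at 24.6 and 15.3. In PD1/PEM, Tbrg4 was at 15.98 CPM and Pnpt1 at 8.74. Fastk, whose mitochondrial isoform is linked to ND6 RNA, was at 44.9 CPM in isotype, 34.2 in PD1/PEM and 35.4 in PDL1/ATZ. On the CPM scale it was thus lower in both other libraries without passing 1.5-fold. Of 17 assembly factors 4 were higher in PDL1/ATZ (Ndufaf3, Ndufaf6, Ndufaf7 and Nubpl), and of 15 transcription and replication genes 1 was, Mterf4. Many of these calls rest on the CPM scale. With size factors, a scale chosen for these lists after the data were seen, where the median of all genes was -0.048, 1 assembly factor (Ndufaf7) was higher and 6 lower, and Ndufb4 and Mterf4 were no longer past 1.5-fold. On that scale 4 of 7 core, 10 of 29 accessory, 2 of 15 transcription and replication and 10 of 18 RNA processing genes were lower, with Angel2 and Pnpt1 still higher. Over all genes, 3056 of 15496 were lower and 2445 higher on the size-factor scale, the background for these counts. Fastk was among the lower RNA processing genes there. Both comparisons share the isotype library.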

How the data were processed

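The deposited matrices hold counts, whole UMIs per gene and cell, made by the authors with Cell Ranger and Seurat on mm10, per the submitters' processing notes. The sources used here give no versions, annotation or cell filters. As deposited, no cell had over 30.0% mitochondrial UMIs or over 2499 genes. All deposited cells were used, since a further mitochondrial limit would select on the members. Cells near the 30.0% end were uneven over libraries: 6919 isotype, 4414 PD1/PEM and 9 PDL1/ATZ cells lay at 25 to 30%. The part of that end point in the shares and ratios was not tested. The members and lists were chosen with earlier results of these data known.

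UMIs were summed per library and scaled to CPM by its total. Shares have Clopper-Pearson, sums Poisson and ratios conditional binomial intervals, all exact at 95%. Genes with at least 50 UMIs over both libraries were compared, and 1.5-fold was the limit used. Symbols with 0 UMIs in PDL1/ATZ or in both other libraries were left out of comparisons with PDL1/ATZ (4484 against isotype), a choice made after that difference had been seen. The ratio and spread steps were tested on simulated data.

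Clustering used scanpy 1.11.5 without mitochondrial genes (2000 variable genes chosen within libraries, 30 components, 15 neighbours, Leiden resolution 1, seed 1, no batch correction). A cluster was named by at least 3 markers at 10 UMIs or more that were 2-fold above the other cells. Doublet scores used 50 neighbours, and the top 0.8% per 1000 cells were marked (724, 326 and 1076 cells) but kept in the main values. Bins and clusters under 20 cells were not read.

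Named genes were the 7 members, the other mitochondrial genes as ranges, up to 3 members with the most UMIs of each list, and the 5 genes nearest mt-Nd6 among those with at least 500 UMIs in each library, over sums of at least 50000 UMIs. The values of 2 genes that these and the fold ranking would name are not reported here. Sequences and positions are from GENCODE M21 (GRCm38).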

Additional observations from a re-analysis of the deposited data

How the results depend on the processing

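No paired analysis was possible because each group has 1 library, and for the same reason no replicate could be left out. The order of the libraries in the mt-Nd6 ratio was the same in the 6 alternatives run. For isotype, PD1/PEM and PDL1/ATZ in that order, values outside the counting interval of the main value were as follows. In cells with at most 25% mitochondrial UMIs, the complex I share of all UMIs was 6.22% and 5.91%, its share of mitochondrial UMIs 28.6% and 27.0%, and mt-Nd6 per 100 heavy-strand UMIs 2.13 and 2.53, with PDL1/ATZ inside its intervals. In isotype cells with at least 500 genes the first share was 7.36%. Without the cells of highest doublet score, the share of all UMIs was 7.47%, 6.92% and 1.96%, the share of mitochondrial UMIs 28.5% in isotype, and the ratio 1.53 and 1.64. Thinned to 700 UMIs, the share of all UMIs was 7.53%, 6.97% and 2.02%, the share of mitochondrial UMIs 28.6% and 26.8%, and the ratio 1.60 and 1.81. As medians over cells the share of all UMIs was 7.64%, 7.06% and 1.95%, the share of mitochondrial UMIs 28.5%, 26.6% and 24.6%, and the ratio 0.870, 0.943 and 0. Leaving out shared barcodes moved no value outside its interval.

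Cells with an mt-Nd6 UMI were 30.8%, 30.3% and 5.03% when thinned to 400 UMIs and 63.7%, 70.4% and 13.2% unthinned. The variance of mt-Nd6 over the binomial variance was 1.30 in isotype and 1.25 in PD1/PEM when thinned to its level in PDL1/ATZ. The range of the ratio over clusters was 2.56-fold in isotype and 1.81-fold in PDL1/ATZ at resolution 0.5, and 2.61-fold, 4.16-fold and 2.42-fold with each library clustered alone. For single complex I genes, in 112 alternative ratios 5 changed direction and 6 others came within 1.5-fold, the latter on the scale of mitochondrial UMIs. Of the 5, those past 1.5-fold in the main values were, on that scale, mt-Nd1 (log2 0.031) and mt-Nd4 (0.029) against isotype and mt-Nd1 (0.14) against PD1/PEM, all for PDL1/ATZ. The other 2, within 1.5-fold throughout, were PD1/PEM over isotype: mt-Nd6 went from 0.022 to -0.012 without the highest doublet scores, and mt-Nd5 from -0.04 to 0.0054 in cells with at most 25% mitochondrial UMIs.

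Counts over all genes moved with the settings. Between PD1/PEM and isotype, 1925 genes were higher and 1891 lower with a minimum of 10 UMIs, 444 and 330 with 200, and 127 and 67 at 2-fold. Between PDL1/ATZ and isotype, 4676 were higher and 1654 lower when scaled by non-mitochondrial UMIs, 2445 and 3056 by median-of-ratios size factors, 3872 and 385 at 2-fold, and 4965 higher with a minimum of 200. Between PDL1/ATZ and PD1/PEM these were 4178 and 1405, 2165 and 2718, 3357 and 286, and 4684 higher, with 1073 lower at a minimum of 10. The cause of these moves was not tested. In cells of 1000 to 2000 UMIs, a limit added after the data were seen, 31 of 42 ratios of the mt-Nd6-rich cells stayed inside their intervals. None with an interval clear of 1 changed direction, while in cluster 3 of PD1/PEM Gm31251 went from 1.03 to 0.918 and Rps26 from 0.895 to 1.02. The 11 outside their intervals included the 6 heavy-strand complex I genes in cluster 3 of PD1/PEM, all lower than over all depths. mt-Nd2 went there from 0.873 to 0.816 and mt-Nd4 from 0.920 to 0.855. The others were Gm26917 (1.79 to 1.54), Lars2 (1.49 to 1.24) and Ndufv3 (0.897 to 0.728) in that cluster, and Myh6 in both clusters.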
